A study of Mus musculus with 6 samples.

Results

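Heat shock proteins and chaperonins are the protein-folding machines of the cell. Their genes were followed here in transferred regulatory T cells (Tregs), recovered from recipient mice that did or did not express MHC class II molecules. Genes were taken by name. They are the heat shock proteins whose symbols begin with Hspa, Hspb, Hspd, Hspe, Hsph or Hsp90, the J proteins (Dnaja, Dnajb and Dnajc), and Tcp1 with Cct2 to Cct8, the subunits of the cytosolic chaperonin. This gave 82 genes of the 19937 genes that the arrays name, on 104 of 21640 rows. Where a gene had several rows, the one with the highest mean of all 6 arrays was kept, so no expression difference entered the choice. Of the 82 genes, 74 passed a minimum on the mean value, a log2 value of 5.205, and were tested together with all other genes, 15037 in total.

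Total T cells of wild-type C57BL/6 mice had been transferred into CD3ε-/- recipients, whose own T cell development is blocked, and Tregs were recovered from lymph nodes and spleen on day 5. In the first group the recipients also lacked MHC II, and in the second group they expressed it. Each group holds 3 arrays, named biological replicates 1 to 3. The cells were isolated as CD4+ TCRβ+ CD25+ with magnetic beads and a fluorescence sort, and the labels give the mice an age of 6 to 8 weeks. CD25 marks Tregs but also other activated CD4 T cells, and every recipient was T cell deficient before the transfer. How many recipients went into a replicate is not stated, and the p-values reflect only the variation among these 6 preparations, part of which may be technical. The values are log2 RMA values from Affymetrix whole-transcript arrays of 100 ng total RNA, and differences are MHC II-deficient minus MHC II-competent. A gene was called when the adjusted p of limma, over all genes tested, was under 0.05.

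HSP70 proteins bind exposed stretches of unfolded chains and release them in a cycle driven by ATP. J proteins bring the clients and start the ATP hydrolysis, and nucleotide exchange factors such as the HSP110 proteins end the cycle by replacing ADP. HSP90 acts later on kinases and receptors, the CCT ring folds actin and tubulin, and mitochondria and the endoplasmic reticulum each hold sets of their own. Stress in the cytosol induces such genes through heat shock factors, while unfolded proteins in the endoplasmic reticulum induce another set through the unfolded protein response. Dividing T cells need much new protein and hold many of these chaperones at high levels.

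Among the 74 tested genes, 1 was called lower in Tregs from MHC II-deficient recipients and 0 were called higher. The called gene was Hspa4l, which encodes an HSP110 protein. Over all genes tested, 2.03% were called lower and 1.34% higher, so the single lower call, 1.35% of the 74, lies near the share of all genes. All calls together were 306 lower and 201 higher, and after quantile normalization of the deposited values 230 lower and 230 higher. At an unadjusted p under 0.05, 11 of the 74 were lower and 2 were higher, against 11% and 7.85% of all genes tested. The count of 11 depends on the processing, as does the share of all genes lower at that p. It was 7 after quantile normalization, against 9.37% of all genes, and 21 after centring each array on its median, against 14.2%. It was 6 without MHC II-deficient replicate 1, against 7.87%, and 7 without MHC II-deficient replicate 2, against 8.39%. No gene other than Hspa4l had an adjusted p below 0.072.

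The 74 genes were more often slightly lower than higher. Their difference was below 0 for 49 of 74, or 66.2%, against 46% of all genes tested. The median difference was -0.07, against 0.02 over all genes. After quantile normalization these medians were -0.04 for the 74 genes and -0.00 over all genes, and after median centring -0.12 for the 74 genes and -0.04 over all genes. With a higher minimum, at the median of the gene rows, 47 of 64 chaperone genes and 55.1% of all genes were below 0. The 3 arrays of each group did not overlap, with the MHC II-deficient arrays lower, for 17 of the 74, or 23%, against 12.9% of all genes. They did not overlap, with the MHC II-deficient arrays higher, for 4 of the 74, or 5.41%, against 11.4% of all genes. The shifts were small, and 73 of the 74 differences were under 0.5 in size. The count below 0 was 47 after quantile normalization, against 50.2% of all genes, and 57 after centring each array on its median, against 59% of all genes. These are counts of the genes, with no test over the list. The shares of all genes, 46% below 0 and 12.9% not overlapping and lower, also belong beside the counts of each group below. In RNA from a bulk population, fewer cells of a type and less RNA per cell cannot be told apart.

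**Figure D1:**
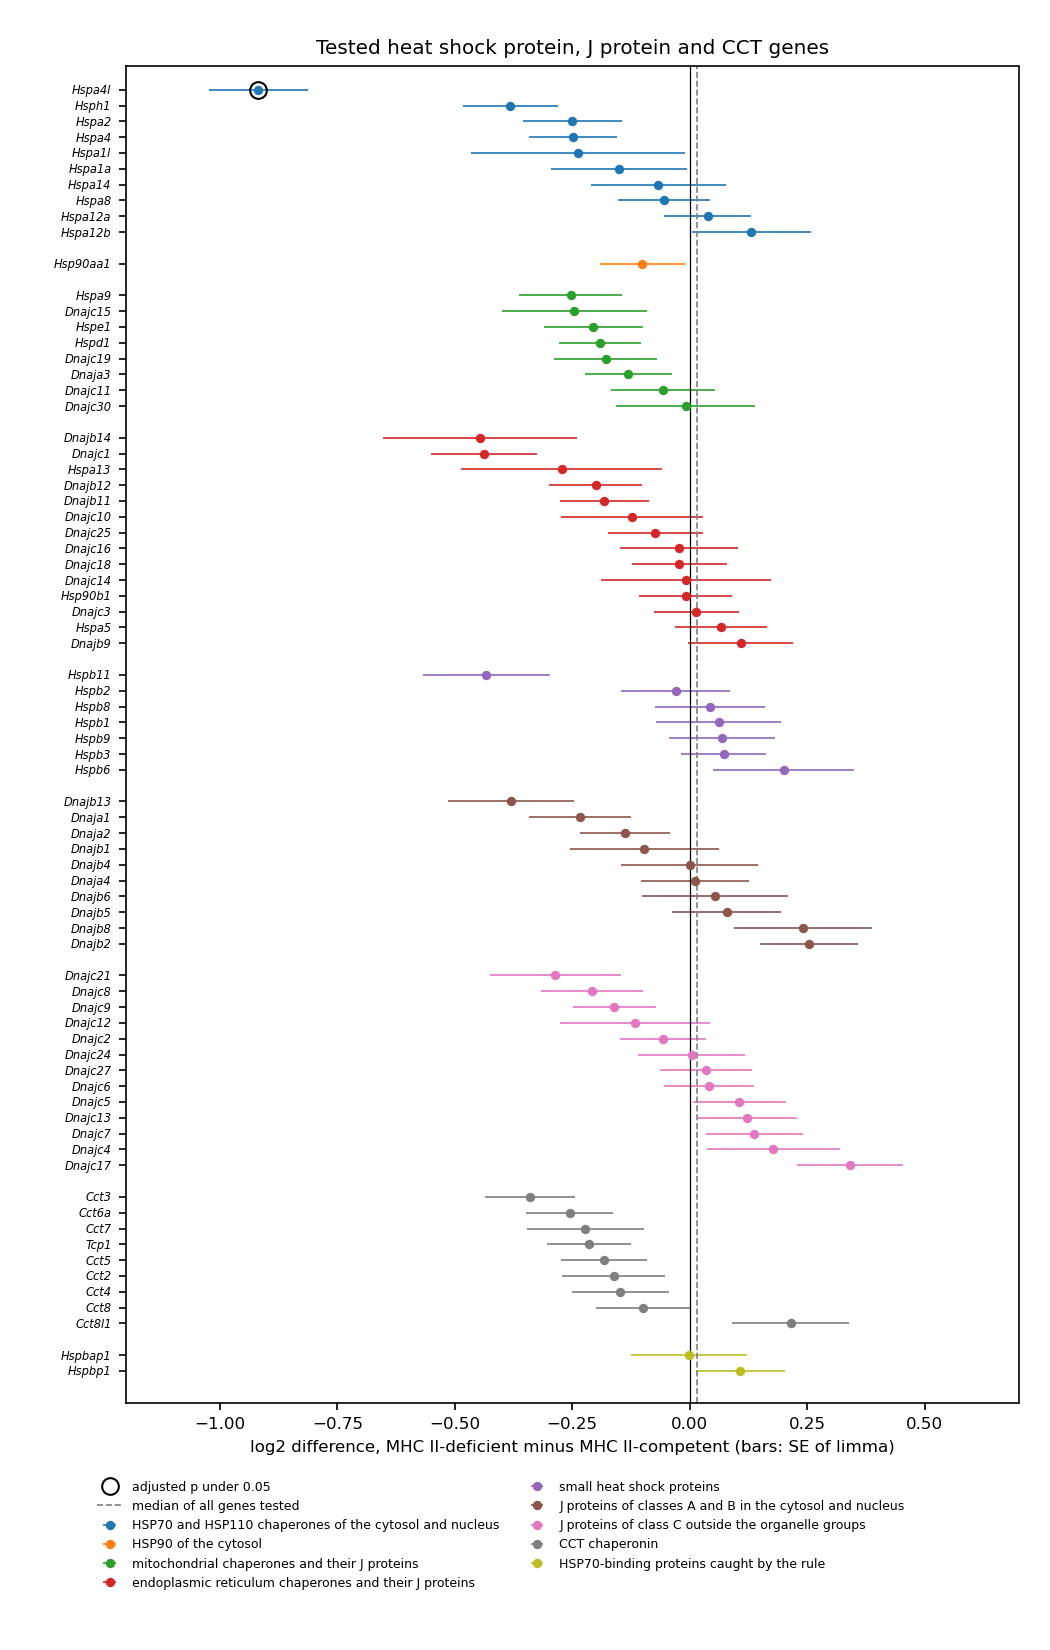
Log2 difference (MHC II-deficient minus MHC II-competent, x axis) of the 74 tested genes, grouped and coloured by compartment, with the standard error of limma as bars and the median of all genes as a dashed line. Hspa4l, circled at -0.92, is the only one past the threshold, and the subunits of the CCT ring and the mitochondrial genes all lie left of 0.

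Hspa4l was lower in the Tregs from MHC II-deficient recipients than in those from MHC II-competent recipients. It is also known as Apg-1, an HSP110 protein that acts as a nucleotide exchange factor for HSP70 and is known for its abundance in testis. Its log2 values on row 10491780 were 7.86, 8.15 and 8.07 in the MHC II-deficient group, against 8.92, 8.90 and 9.01 in the MHC II-competent group. Each of the 3 MHC II-deficient arrays lay well below the lowest MHC II-competent array. The means were 8.03 ± 0.15 and 8.94 ± 0.06 (SD, n = 3 each), a difference of -0.92 with a standard error of 0.105 and a 95% interval from -1.15 to -0.68 (limma, adjusted p = 0.0032). This is 1.89-fold lower. Only 0.359% of the genes tested had a difference as low or lower. The call held in 14 of 14 alternative settings, with differences between -0.98 and -0.84.

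The gene lies on chromosome 3, and its annotated start in RefSeq (GRCm38.p6) follows the stretch chr3:40745463-40745612 on the plus strand. The stretch is shown because it precedes the start of the single called gene, and it is printed without capitals because neither of the 2 elements searched (described with the mitochondrial pair) occurs in it.
Hspa4l: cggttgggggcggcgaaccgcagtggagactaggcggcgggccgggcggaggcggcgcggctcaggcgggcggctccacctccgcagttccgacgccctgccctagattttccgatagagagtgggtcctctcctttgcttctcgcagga

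The other HSP110 genes of the cytosol were lower by smaller amounts that missed the threshold. Hsph1, the heat-inducible HSP105, had log2 values of 8.80, 8.85 and 9.00 in the MHC II-deficient group and 9.17, 9.28 and 9.34 in the MHC II-competent group. The groups did not overlap, and the difference was -0.38 ± 0.10 (SE, limma adjusted p = 0.077). Hspa4, also called Apg-2 and present in most tissues, had 10.23, 10.21 and 10.30 in the MHC II-deficient group and 10.40, 10.56 and 10.51 in the MHC II-competent group. Its groups did not overlap either, with a difference of -0.25 (95% interval -0.46 to -0.04, limma adjusted p = 0.19). Neither gene passed the threshold in any of the 14 alternatives, where the adjusted p of Hsph1 lay between 0.061 and 0.26 and that of Hspa4 between 0.12 and 0.43.

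Of the HSP70 genes, Hspa8 was close to equal between the groups on its kept row. Hspa8 (Hsc70), the constitutive HSP70 that also strips clathrin from vesicles, had values of 12.07, 11.93 and 12.07 in the MHC II-deficient group and 12.01, 12.18 and 12.03 in the MHC II-competent group. The arrays overlapped, and the 95% interval of its difference, -0.27 to 0.17, leaves room for a shift of that size in either direction. Its other rows had differences of -0.28 and -0.01. The stress-inducible Hspa1a had 6.38, 6.36 and 6.30 in the MHC II-deficient group and 6.30, 6.34 and 6.85 in the MHC II-competent group, so a single array, MHC II-competent 3, stood above the rest. Its difference was -0.15, and 0.02 without that array. Hspa1b shares its row with another gene and was not used here.

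The remaining HSP70-type genes had differences between -0.25 and 0.13. Hspa2, an HSP70 known for its part in male germ cells, had values of 6.93, 6.70 and 6.90 in the MHC II-deficient group and 7.05, 7.21 and 7.03 in the MHC II-competent group, with no overlap (difference -0.25, limma adjusted p = 0.24). Hspa1l and Hspa14, a ribosome-associated HSP70, overlapped between groups, as did the distant relatives Hspa12a and Hspa12b. Hspa12b had the highest difference of the 10 genes, 0.13 ± 0.13 (SE, limma adjusted p = 0.63). Over the 10 HSP70 and HSP110 genes the median difference was -0.19, 8 of 10 were below 0, and 4 did not overlap between groups, each with the MHC II-deficient arrays lower. Over all genes 46% were below 0 and 12.9% did not overlap in that direction. The median was -0.14 without MHC II-deficient replicate 2 and -0.25 after median centring.

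**Figure D2:**
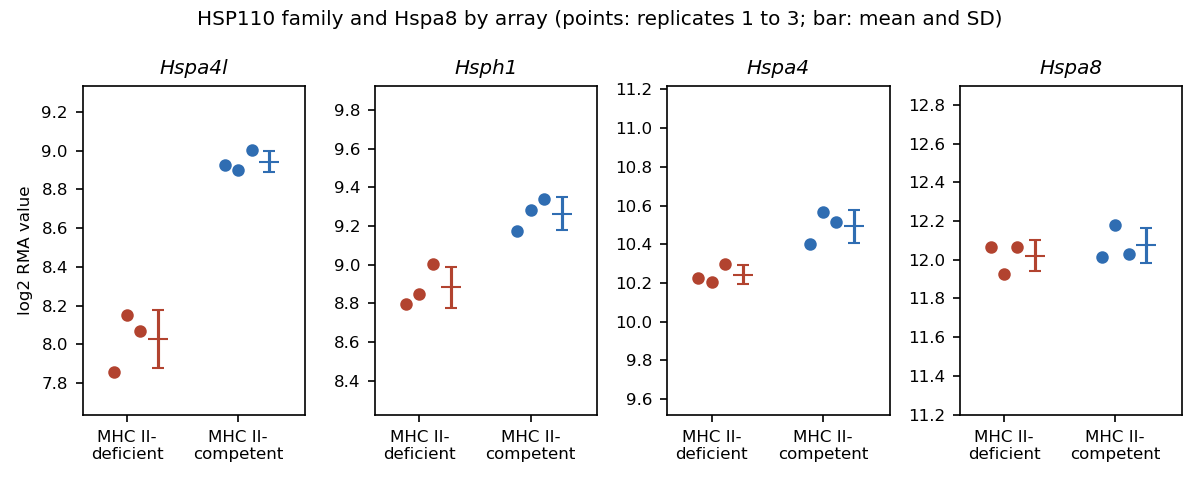
Log2 RMA values of the HSP110 genes Hspa4l, Hsph1 and Hspa4 and of Hspa8 on each array, with MHC II-deficient arrays left and MHC II-competent arrays right; points are replicates 1 to 3 and bars the mean with SD. The 3 HSP110 genes show no overlap between groups, with a gap that is widest for Hspa4l, and the arrays of Hspa8 overlap.

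The HSP90 of the cytosol was represented by Hsp90aa1, the stress-inducible form. Its values were 11.81, 11.81 and 11.71 in the MHC II-deficient group and 11.83, 11.89 and 11.92 in the MHC II-competent group. The groups were next to each other without overlap, and the difference was -0.10 (95% interval -0.30 to 0.10, limma adjusted p = 0.60). Hsp90ab1 was not analysed here. The HSP90 co-chaperones, proteins that deliver clients to HSP90 or time its ATP cycle, were below 0 for 12 of 13 tested genes with a median of -0.15, and 0 passed the threshold. Chordc1, an HSP90-binding protein, had the lowest difference, -0.59 ± 0.15 (SE, limma adjusted p = 0.071), and Cdc37, which brings kinases to HSP90, had -0.43 (limma adjusted p = 0.11). Ahsa1, which speeds the HSP90 ATPase, had -0.16. Tsc1, better known as a brake on mTOR signalling, was the exception at 0.40 (limma adjusted p = 0.079).

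Stip1 (HOP), which links HSP70 to HSP90, came closest to a call among the co-chaperones of HSP70. Its values were 9.84, 9.71 and 9.82 in the MHC II-deficient group and 10.22, 10.19 and 10.10 in the MHC II-competent group, a difference of -0.38 (limma adjusted p = 0.064). The 3 MHC II-deficient arrays lay below all 3 of the other group. Stip1 passed the threshold under 2 of 14 alternatives, a trended and robust prior and array weights, with adjusted p between 0.038 and 0.22 over the 14. Among the 11 tested co-chaperones and exchange factors, 6 were below 0 and 0 passed. St13 (HIP), which steadies HSP70 on its client, had -0.35, and Bag3, a stress-inducible exchange factor, had -0.06.

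Heat shock transcription factors and their binding protein gave no call among 4 tested genes. Hsf2 had a difference of -0.29 with overlapping groups. Hsbp1, a small protein that binds the trimer of Hsf1, had -0.31 without overlap (limma adjusted p = 0.15). Hsf1 was not analysed here.

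Among J proteins of classes A and B in the cytosol and nucleus, the partners of HSP70 that hold clients, 10 were tested. The differences were above 0 for 5 and below 0 for 5, with a median of 0.01. Dnaja1, an abundant class A protein, had values of 11.61, 11.64 and 11.77 in the MHC II-deficient group and 11.73, 12.02 and 11.97 in the MHC II-competent group. These overlapped at a single array of each group, and the difference was -0.23 ± 0.11 (SE, limma adjusted p = 0.29). Its second row had a difference of -0.02, and the mean of both rows gave -0.12. Dnajb1, the heat-inducible HSP40, had 8.22, 8.29 and 8.49 in the MHC II-deficient group and 8.56, 8.67 and 8.06 in the MHC II-competent group. Replicate 3 of the MHC II-competent group held both the lowest value and the overlap, and without it the difference was -0.28 (limma adjusted p = 0.18) rather than -0.10.

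The extremes of these class A and B proteins were genes known from other tissues. Dnajb13, a component of the sperm flagellum, was lowest with a difference of -0.38 (limma adjusted p = 0.17). Dnajb2, known from neurons, was highest with 5.86, 5.80 and 5.57 in the MHC II-deficient group and 5.48, 5.51 and 5.48 in the MHC II-competent group. Its groups did not overlap, at values near the minimum for testing (difference 0.25, limma adjusted p = 0.22).

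The class C J proteins outside the organelles, which serve single tasks rather than general folding, were split in direction. Of 13 tested genes, 8 were above 0 and 5 below, with a median of 0.04 and 0 calls. Dnajc17, a J protein linked to splicing, had the largest increase of the 74 genes. Its values were 8.86, 8.92 and 9.17 in the MHC II-deficient group and 8.63, 8.74 and 8.56 in the MHC II-competent group, without overlap (difference 0.34 ± 0.11, SE, limma adjusted p = 0.14). Dnajc5, the cysteine string protein of vesicles, and Dnajc7, which also binds HSP90, did not overlap with the MHC II-deficient arrays higher, at differences of 0.11 and 0.14.

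At the low end of class C was Dnajc21, a ribosome assembly factor, with 9.00, 8.91 and 9.23 in the MHC II-deficient group and 9.08, 9.56 and 9.36 in the MHC II-competent group. Its arrays overlapped, and the difference was -0.29 (limma adjusted p = 0.31). Dnajc9, a chaperone of newly made histones, had 10.15, 10.18 and 10.18 in the MHC II-deficient group and 10.37, 10.29 and 10.34 in the MHC II-competent group. Its groups did not overlap, and the replicates were close together, but the difference was only -0.16 (limma adjusted p = 0.37). Dnajc13, a J protein of endosomes, has 15 rows whose differences ran from -0.60 to 0.40, with 7 of 15 below 0, so its kept value of 0.12 depends on the row.

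The small heat shock proteins, which hold unfolded chains without ATP, included 7 tested genes with a median of 0.06 and 0 calls. Hspb1 (HSP25), the best known of them, had 6.75, 6.98 and 7.15 in the MHC II-deficient group and 6.83, 6.77 and 7.10 in the MHC II-competent group. These overlapped throughout. Hspb6 (HSP20) was highest with a difference of 0.20 (limma adjusted p = 0.52). Hspb11 was the exception, with 8.14, 8.48 and 8.51 in the MHC II-deficient group and 8.67, 9.02 and 8.74 in the MHC II-competent group. The groups did not overlap (difference -0.43 ± 0.14, SE, limma adjusted p = 0.13), and the protein is a component of intraflagellar transport despite its name. The other proteins taken by name, the HSP70-binding Hspbp1 and Hspbap1, had differences of 0.11 and -0.00.

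The CCT ring, also called TRiC, is made of 8 different subunits that fold actin, tubulin and cell cycle regulators. All 8 subunits had a difference below 0, with a median of -0.20, and 0 passed the threshold. Over all genes 46% were below 0, and 55.1% with a filter at the median of the gene rows. After quantile normalization the median of the 8 was -0.12, with Cct4 at -0.07 and Cct8 at -0.02. Cct3 had the largest difference, with log2 values of 8.94, 9.06 and 9.15 in the MHC II-deficient group and 9.41, 9.40 and 9.35 in the MHC II-competent group. Its groups did not overlap (difference -0.34 ± 0.096, SE, limma adjusted p = 0.097), and over the 14 alternatives the adjusted p lay between 0.066 and 0.31.

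Tcp1, Cct5 and Cct6a were the other subunits without overlap. With Cct3 this made 4 of 8 lower without overlap, against 12.9% of all genes. Tcp1, the alpha subunit, had 10.26, 10.23 and 10.33 in the MHC II-deficient group and 10.51, 10.50 and 10.45 in the MHC II-competent group (difference -0.21, limma adjusted p = 0.24). Cct6a had 9.72, 9.78 and 9.88 in the MHC II-deficient group and 10.09, 10.04 and 10.02 in the MHC II-competent group (difference -0.26, limma adjusted p = 0.18). Cct5 had 10.79, 10.85 and 10.84 in the MHC II-deficient group and 11.08, 11.01 and 10.94 in the MHC II-competent group (difference -0.18, limma adjusted p = 0.32). In each of these 3, the highest MHC II-deficient array stayed below the lowest MHC II-competent one.

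The remaining subunits overlapped in 1 or more arrays. Cct7 had a difference of -0.22 (limma adjusted p = 0.38) and Cct2 had -0.16 (limma adjusted p = 0.47), and in both MHC II-competent replicate 3 lay among the MHC II-deficient arrays. Cct4 had a difference of -0.15 and Cct8 the smallest, -0.10 (limma adjusted p = 0.66). The direction of each of the 8 was kept in the 14 alternatives. The testis-type relative Cct8l1 went against the ring, with 5.35, 5.57 and 5.55 in the MHC II-deficient group and 5.09, 5.25 and 5.49 in the MHC II-competent group (difference 0.21, limma adjusted p = 0.39). Cct6b, the testis form of the zeta subunit, lay under the minimum and was not tested.

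Averaged over the 8 subunits, the log2 value was 10.10, 10.19 and 10.27 in the MHC II-deficient arrays and 10.44, 10.42 and 10.31 in the MHC II-competent arrays. MHC II-deficient replicate 3 and MHC II-competent replicate 3 were thus nearest to each other. Prefoldin, which hands actin and tubulin chains to the ring, and the phosducin-like partners of CCT were below 0 for 7 of 9 tested genes with a median of -0.12, and 0 passed. Pfdn1, a prefoldin subunit, had the lowest difference, -0.38 (limma adjusted p = 0.085).

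**Figure D3:**
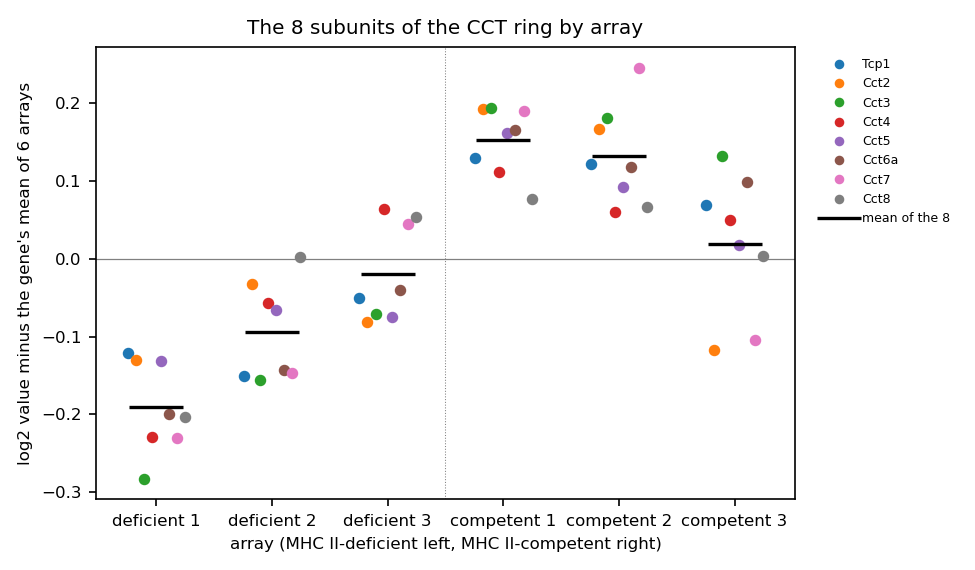
Log2 value of each of the 8 CCT subunits on each array minus that gene's mean over the 6 arrays (y axis), with the MHC II-deficient arrays left and the MHC II-competent arrays right; black bars are the mean of the 8. In MHC II-deficient replicate 1 all subunits lie below 0 and in MHC II-competent replicates 1 and 2 all lie above. In both arrays numbered 3 the mean of the 8 lies near 0, with subunits on both sides of it.

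The mitochondrial chaperones showed a like pattern of small shifts. All 8 tested genes had a difference below 0, with a median of -0.18 (-0.12 after quantile normalization) and 0 calls. The share of all genes below 0 was 46%, and 55.1% with a filter at the median of the gene rows. Hspa9 (mortalin), the HSP70 that pulls proteins into the matrix, had 9.92, 10.20 and 10.19 in the MHC II-deficient group and 10.40, 10.26 and 10.41 in the MHC II-competent group. Its groups did not overlap (difference -0.25 ± 0.11, SE, limma adjusted p = 0.25). Hspd1, the HSP60 barrel in which matrix proteins fold, had 11.27, 11.24 and 11.22 in the MHC II-deficient group and 11.43, 11.47 and 11.40 in the MHC II-competent group. These groups were tight and did not overlap, but the difference was only -0.19 (limma adjusted p = 0.28). Hspe1, the HSP10 lid of that barrel, had 11.35, 11.39 and 11.46 in the MHC II-deficient group and 11.43, 11.66 and 11.72 in the MHC II-competent group. One array of each group overlapped, with a difference of -0.21 (limma adjusted p = 0.34).

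The J proteins of mitochondria followed in the same direction. Dnaja3 (Tid1), a matrix partner of Hspa9, did not overlap between groups (difference -0.13, limma adjusted p = 0.50). Dnajc15 and Dnajc19, parts of the import motor, had -0.25 and -0.18 with overlapping arrays. Dnajc30 had the highest difference of the 8, -0.01, and its sign turned when single arrays were left out. The partners of these chaperones and the mitochondrial proteases, 10 tested genes, had a median of -0.06 and 0 calls. Grpel1, the nucleotide exchange factor of Hspa9, was the lowest of them at -0.28 (limma adjusted p = 0.20).

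Hspd1 and Hspe1 are neighbours that are read in opposite directions from a shared promoter on chromosome 1. Their annotated starts in RefSeq (GRCm38.p6) are 215 bases apart. The stretch between them, chr1:55087933-55088147 on the plus strand, is shown because this pair is a textbook target of the heat shock factors. Hspe1 begins to its right and an annotated start of Hspd1 lies to its left. Capitals mark the overlapping matches to a heat shock element of 3 units, searched as GAANNTTCNNGAA on both strands.
Hspd1 and Hspe1: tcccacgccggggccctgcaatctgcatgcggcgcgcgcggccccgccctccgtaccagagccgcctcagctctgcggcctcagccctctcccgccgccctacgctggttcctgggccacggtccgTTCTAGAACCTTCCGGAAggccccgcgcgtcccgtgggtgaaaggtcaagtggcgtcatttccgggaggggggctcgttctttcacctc

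The element occurs in the 300-base start windows of 0.662% of 27025 genes and of 4 of the 68 chaperone genes with a window. These are Hspd1, Hspe1, Hsph1 and Dnajb6, with differences of -0.19, -0.21, -0.38 and 0.05. The second rows of Hspd1 and Hspe1 had -0.12 and -0.13, and which copy the kept rows measure is uncertain. The windows run from 250 bases before an annotated start to 50 bases after it, and the matches of Hsph1 lie after its start. Dnajb6, which keeps aggregation-prone chains soluble, had 8.65, 8.61 and 8.42 in the MHC II-deficient group and 8.56, 8.16 and 8.79 in the MHC II-competent group. Its arrays overlapped, as did those of Hspe1, while those of Hspd1 and Hsph1 did not. A match describes letters and was not tested as a binding site.

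Among the chaperones of the endoplasmic reticulum, Hspa5, Hsp90b1 and Dnajc3 stayed close to equal, and several J proteins were lower without a call. Hspa5 (BiP), the HSP70 of this compartment, had 10.97, 10.92 and 10.94 in the MHC II-deficient group and 10.99, 10.89 and 10.75 in the MHC II-competent group. The arrays overlapped, and the 95% interval of the difference ran from -0.15 to 0.29. Hsp90b1 (GRP94), the HSP90 that folds integrins and Toll-like receptors, had 11.98, 11.89 and 11.98 in the MHC II-deficient group and 11.91, 12.10 and 11.87 in the MHC II-competent group. Its difference was -0.01 with a 95% interval from -0.23 to 0.22, and its sign turned under quantile normalization. Dnajc3 (p58IPK), a J protein that partners Hspa5, had 10.87, 10.79 and 10.85 in the MHC II-deficient group and 10.82, 10.87 and 10.76 in the MHC II-competent group. Its difference was 0.01 (95% interval -0.19 to 0.22), with a sign that turned under median centring. The interval of each of these 3 genes excludes a shift of the size seen for Hspa4l.

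These 3 genes share an element in their start regions. The endoplasmic reticulum stress element, searched as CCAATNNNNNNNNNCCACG on both strands, is bound during the unfolded protein response. It occurs in the start windows of 0.137% of 27025 genes, and of the 68 chaperone genes with a window only Hspa5, Hsp90b1 and Dnajc3 hold it. The stretches are shown because they set the 3 genes apart by sequence from the other 65 chaperone genes that were searched, with the matches in capitals. They lie at chr2:34772005-34772063 (plus strand), chr10:86705513-86705676 (minus strand) and chr14:118937807-118937865 (plus strand) in GRCm38.p6.
Hspa5: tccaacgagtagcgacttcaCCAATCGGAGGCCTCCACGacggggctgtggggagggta
Hsp90b1: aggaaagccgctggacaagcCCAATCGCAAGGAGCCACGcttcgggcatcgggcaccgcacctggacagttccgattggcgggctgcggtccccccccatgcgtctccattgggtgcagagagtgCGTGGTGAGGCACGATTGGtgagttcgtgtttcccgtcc
Dnajc3: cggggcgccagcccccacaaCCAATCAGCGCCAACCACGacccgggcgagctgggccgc

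Over the 14 tested genes of this compartment the median difference was -0.05, with 11 below 0 and 0 calls. Without MHC II-competent replicate 3 the median was -0.16, and after median centring it was -0.10. Dnajb9 (ERdj4), an inducible target of the unfolded protein response, had the highest difference, 0.11, with 8.41, 8.20 and 8.11 in the MHC II-deficient group and 8.07, 8.07 and 8.25 in the MHC II-competent group. The arrays overlapped.

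Dnajc1 (ERdj1), a membrane J protein at the ribosome, came closest to a call. It had 8.57, 8.35 and 8.56 in the MHC II-deficient group and 8.77, 9.06 and 8.96 in the MHC II-competent group. The groups did not overlap, with a difference of -0.44 ± 0.11 (SE, limma adjusted p = 0.072). Dnajb14, a membrane J protein of degradation, had the lowest difference, -0.45, but its arrays overlapped and spread widely (limma adjusted p = 0.28). Its sister Dnajb12 and Dnajb11 (ERdj3), a soluble partner of Hspa5, did not overlap between groups, with differences of -0.20 and -0.18.

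**Figure D4:**
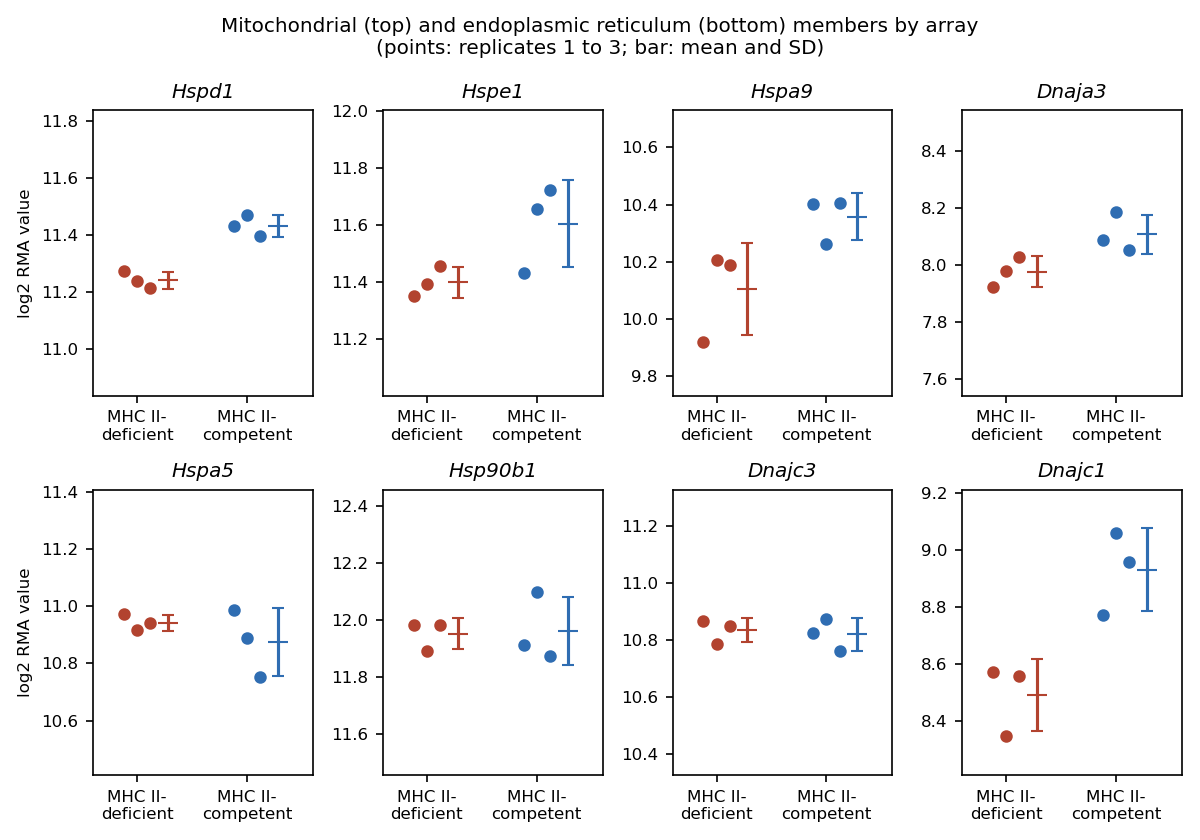
Log2 RMA values of 4 mitochondrial genes (top) and 4 endoplasmic reticulum genes (bottom) on each array, MHC II-deficient left and MHC II-competent right; points are replicates 1 to 3 and bars the mean with SD. Hspd1, Hspa9, Dnaja3 and Dnajc1 show no overlap between groups, with differences from -0.13 to -0.44, while Hspa5, Hsp90b1 and Dnajc3 overlap.

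The wider unfolded protein response gave the same count of calls. Of 23 tested genes of this response and of the folding partners in the compartment, 0 passed the threshold, 14 were below 0, and the median was -0.07. The groups did not overlap for 5 of the 23 with the MHC II-deficient arrays lower, against 12.9% of all genes. With those arrays higher it was 2 of the 23, against 11.4%. Among the 5 were P4hb (-0.32), Sec63 (-0.26) and Pdia3 (-0.25). Atf6, a sensor of unfolded proteins, had the lowest difference, -0.48 (limma adjusted p = 0.063), with 8.46, 8.15 and 8.29 in the MHC II-deficient group and 8.96, 8.70 and 8.70 in the MHC II-competent group. Its groups did not overlap. Ddit3 (CHOP), a late factor of the response, had 0.16 (limma adjusted p = 0.40), also without overlap. Xbp1, the factor activated by splicing, had 0.03, and Hyou1, an HSP110-type exchange factor for Hspa5, had 0.08 with overlapping groups. The rows measure transcripts as a whole and do not separate spliced from unspliced Xbp1.

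**Figure D5:**
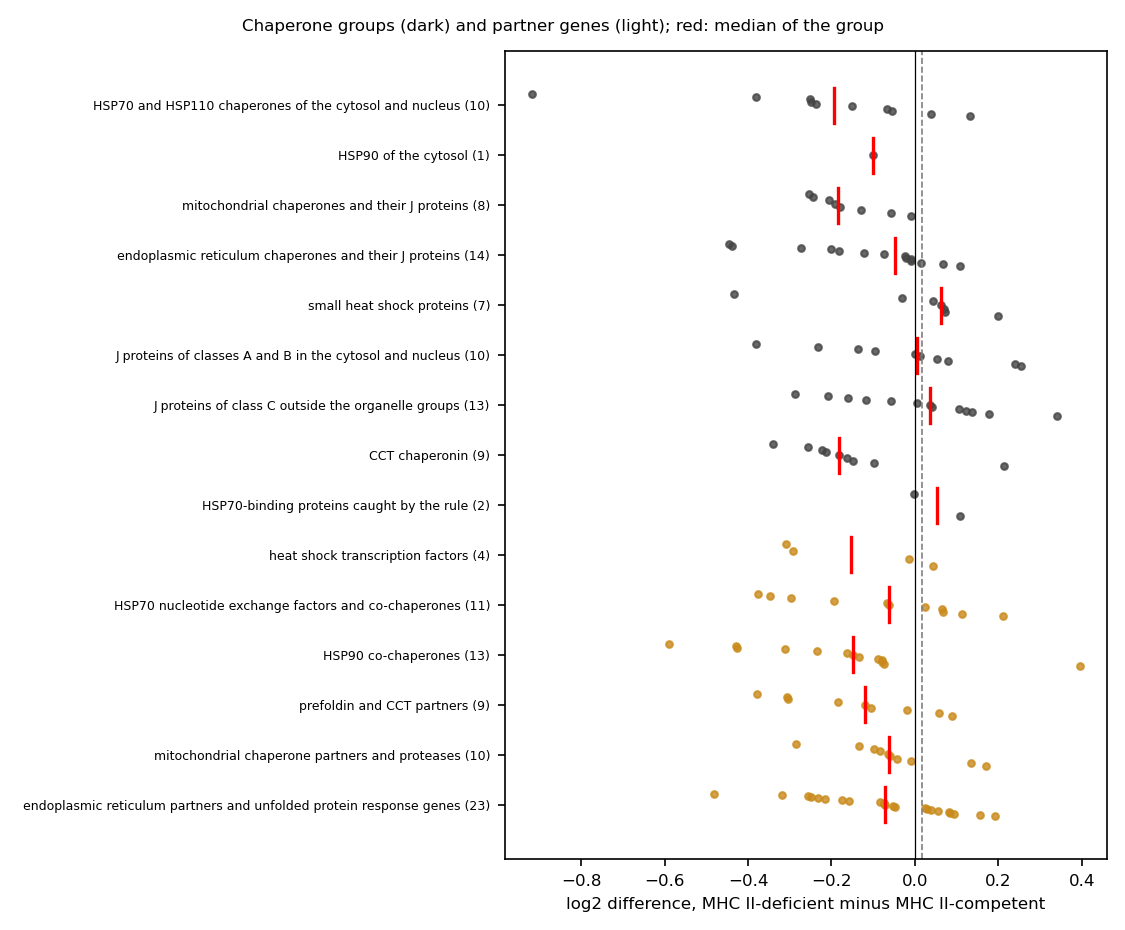
Log2 difference (MHC II-deficient minus MHC II-competent, x axis) of each tested chaperone (dark) and partner gene (light), 1 row of points per group with the number tested in brackets; red bars are group medians and the dashed line the median of all genes. The medians of the HSP70 and HSP110, mitochondrial and CCT groups lie near -0.2, those of the small heat shock proteins and of the class A, B and C J proteins between 0.01 and 0.06, and 12 of 13 HSP90 co-chaperones lie below 0.

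The 8 genes under the minimum were Cct6b, Dnajb3, Dnajb7, Dnajc5b, Dnajc5g, Dnajc22, Dnajc28 and Hspb7, with means from 4.10 to 5.18. Several are known from testis, muscle or nerve. Of the 7 genes with several rows, Dnajc13 alone had rows that differed in sign. Other rows of Hspa8 ran from -0.28 to -0.01 and those of Hsp90aa1 from -0.20 to -0.02, and the second rows of Hspd1 and Hspe1 had -0.12 and -0.13. The rows of Hspa8, Hsp90aa1, Hspd1, Hspe1, Dnaja1, Hspb1 and Hspa1a can also bind near-identical copies, so which copy they measure is uncertain.

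Genes of other cell types and of the cell cycle also differed between these arrays. The 22 tested cell cycle genes all had a difference below 0, against 46% of all genes. Called lower were 7 of the 22 (Kif11, Top2a, Aurka, Mki67, Mcm3, Ccna2 and Bub1, at -0.73 to -0.51), against 2.03% of all genes. Leaving out any 1 of the 6 arrays ended 3 to 7 of these calls, and without MHC II-deficient replicate 1 or MHC II-competent replicate 2 none of the 7 was left (limma adjusted p up to 0.15). Their mean log2 value was 9.04, 9.12 and 9.19 in the MHC II-deficient arrays and 9.65, 9.55 and 9.36 in the MHC II-competent arrays. It was thus ordered over the 6 arrays as the mean of the CCT ring was. Other chaperone groups were ordered otherwise. In the MHC II-competent arrays the mean was 8.16, 8.10 and 8.18 for the HSP70 and HSP110 group and 9.30, 9.27 and 9.34 for the mitochondrial group. Both were highest in MHC II-competent replicate 3, where the cell cycle mean was lowest of that group. The part of cell division in the chaperone values was not tested.

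Markers of myeloid cells were above 0 for 15 of 17 tested genes. The exceptions were Itgam (-0.43) and Cst3 (-0.28), both without overlap and lower in the MHC II-deficient arrays. The mean level of the 17 was 7.76, 7.52 and 6.95 in the MHC II-deficient arrays and 6.71, 7.04 and 6.18 in the MHC II-competent arrays. Adgre1, a surface protein of macrophages, was called higher (1.39, limma adjusted p = 0.035), a call held in 6 of 14 alternatives and in 1 of the 6 that left out an array, that without MHC II-deficient replicate 3; the other 5 gave differences from 1.10 to 1.65 with adjusted p up to 0.11. The B cell gene Cd22 (1.32), the NK cell gene Klrd1 (2.66) and the immediate early gene Jun (0.70) were also called higher. Their lists also lay mostly above 0, at smaller medians. Above 0 were 5 of 6 tested B cell genes (median 0.21) and 7 of 8 CD8 T and NK cell genes (0.32). Of the immediate early genes 10 of 14 were above 0 (0.10), as were all 5 tested erythroid and platelet genes (0.19, 0 calls). Over all genes tested, 46% were below 0 and the median was 0.02. The single genes do not give the size for their lists, and some members were flat or lower. Among B cell genes Pax5 differed by 0.02 and Cd79b by -0.39, without overlap and lower in the MHC II-deficient arrays. The NK cell gene Gzma differed by -0.03, and Klrb1c and Ncr1 lay under the minimum. The immediate early gene Egr1 had a difference of -0.61 without overlap (limma adjusted p = 0.051). Jun lost its call without MHC II-deficient replicate 1 or 2 (limma adjusted p = 0.063 and 0.053), and its adjusted p over the 14 alternatives lay between 0.0066 and 0.063. The part of such cells in the chaperone values was not tested. The T cell and Treg markers were present on each array, and 0 of 9 were called. All 9 had a difference below 0, with a median of -0.14, and 5 of 9 did not overlap, with the MHC II-deficient arrays lower. The shares over all genes were 46% and 12.9%. Cd28 (-0.36), Ctla4 (-0.33) and Ikzf2 (-0.29) were the lowest, each without overlap. Foxp3 differed by -0.06, Il2ra, the sorted CD25, by -0.27, Cd3e by -0.07 and Cd4 by -0.08.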

How the data were processed

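Arrays of 6 Treg preparations (3 per group) were compared. The deposited table holds log2 values of 28101 rows, made with affy and RMA, per the submitters' processing notes. The log base is not stated and was taken as 2; versions, annotation and build are not given in the sources used here. Array medians lay between 6.11 and 6.25, and the number of arrays limits the precision. Rows were named by the platform annotation, with symbols updated by Entrez identifier (21553 of 21640 rows with 1 symbol; 1321 had several and 5140 none). Genes whose mean lay below the 25th percentile of the means of the 21640 rows with 1 symbol were left out. The test was that of limma (version 3.58.1, under R 4.3.3; two-sided, default prior, Benjamini-Hochberg over all genes tested), and the procedure was tested on simulated data. Named genes were those called, the extremes of each compartment and a fixed list of main chaperones; partner genes without a call and genes without overlap were added after their values were seen. The genes and lists were chosen with earlier results of these data known. Sequences are from RefSeq, GRCm38.p6. The alternatives varied the filter, row choice, normalization, spread estimate, replicate block and arrays used.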

Additional observations from a re-analysis of the deposited data

How the results depend on the processing

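Hspa4l was called in 14 of 14 alternatives (adjusted p 0.0020 to 0.022), and the count of chaperone genes called was 1 lower and 0 higher in each. Over all genes tested, the calls numbered 507, and 159 to 708 with 1 array left out. The replicate numbers showed no sign of pairing the arrays (correlations of same-numbered deviations -0.02, -0.14 and 0.07, of differently numbered ones -0.13 to 0.17). With 3 arrays per group these correlations cannot exclude a pairing. With the replicate number as a block 318 genes were lower and 246 higher, with Hspa4l the chaperone called. In that setting 6 chaperone genes were lower at an unadjusted p under 0.05, against 10.4% of all genes. The HSP70 and HSP110 median, -0.195, was -0.249 with a filter at the median of the gene rows, -0.249 after median centring, and between -0.210 and -0.141 with 1 array left out. The endoplasmic reticulum median was between -0.163 and -0.0203 with 1 array left out. Over the same omissions the medians of the class A and B J proteins (-0.0430 to 0.0219), the class C J proteins (-0.0187 to 0.0505) and the small heat shock proteins (-0.0038 to 0.0871) crossed 0, while those of the CCT and mitochondrial groups stayed below it.

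Of 794 results for single genes in the alternatives, 719 kept their direction and side of the threshold, 48 lost a call, 2 gained one and 25 changed sign. Quantile normalization turned Hsp90b1 (0.0468), Foxp3 (0.0169) and Cd4 (0.0020). Median centring turned Dnajc3 (-0.0405) and Xbp1 (-0.0251). Array weights turned Hspbap1 (0.0628), Hsp90b1 (0.00037) and Xbp1 (-0.0467). With 1 array left out, signs turned within ranges of -0.100 to 0.0937 for Hspbap1, -0.141 to 0.0996 for Dnajc30, -0.250 to 0.0244 for Hspa1a, -0.0517 to 0.0594 for Hsp90b1 and -0.282 to 0.0240 for Dnajb1. Likewise Dnajc3 ranged from -0.0162 to 0.0411, Hspb1 from -0.0351 to 0.168, Hyou1 from -0.0076 to 0.179, Xbp1 from -0.0898 to 0.138 and Cd4 from -0.205 to 0.0231. The cause of these turns was not tested.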
